A study of Zea mays with 18 samples.

Results

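The transcript followed here is that of pdk1, a maize (Zea mays) gene for pyruvate orthophosphate dikinase, in endosperm of the opaque2 (o2) mutant and of wild type. Its clones were taken as those whose symbol or synonym in the platform annotation, updated through a gene table, is pdk1. That rule found 1 clone, annotated as LOC542759, among 7466 clones with values, of which 489 carried a gene name. The cDNA arrays had 2 colours and were hybridised with polyA RNA of immature endosperm taken 14 days after pollination, so that o2 and wild type of the same background shared each array. The mutant was set against wild type in 3 comparisons: o2 in the inbred line B46 and B46 wild type, o2 in the inbred line M14 and M14 wild type, and a mixture of o2 lines and a mixture of wild-type lines, where the mixtures drew on 8 lines (A619, B14A, B45, B46, B57, B66, B73 and M14). Each comparison had 3 independent sample pairs per the labels, and each pair was hybridised on 2 arrays with the dyes exchanged. No label states the allele of o2, how many plants stand behind a sample or how the mutant lines were bred.

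Pyruvate orthophosphate dikinase interconverts pyruvate and phosphoenolpyruvate, and so joins the lower end of glycolysis to the precursors of several amino acids. In leaves the chloroplast enzyme supplies phosphoenolpyruvate for C4 photosynthesis, whereas developing endosperm has a cytosolic form, and in maize the pdk1 locus can give both forms from separate promoters. The product of the o2 gene is an endosperm bZIP factor that activates 22-kDa alpha zein genes, and the cytosolic dikinase is a textbook target of it. Another maize dikinase gene has no named clone on these arrays. Whether its transcript also binds the pdk1 clone was not tested.

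All values below are log ratios of o2 over wild type, centred on the median of their array, and a negative value means less transcript in o2. The base of the deposited log is not stated, so folds are given for base 2 and for the natural log. Which genotype stands on top of the deposited ratio is not settled. Since the design text puts wild type first, wild type over o2 was assumed for all 18 arrays and the sign was turned. pdk1 was itself looked at when this reading was set, so its sign is not independent evidence of the direction. In each of the 9 dye swaps the 2 arrays correlated below 0 over all clones (r between -0.35 and -0.018), and arrays with wild type on Cy5 correlated with one another at between -0.34 and 0.44. By itself, a genotype difference would put the r of partner arrays above 0 under the reading used, and below 0 under Cy5 over Cy3. Over all clones the partner arrays therefore do not bear out the reading used. Whether dye effects outweighed the genotype difference was not tested. If the ratio was Cy5 over Cy3 instead, the values must be turned by the labelled dyes, and this second reading is given beside the means, places and comparisons of pdk1. If every deposited value ran the opposite way, all signs below would turn and places would count from the other end. These are bulk samples, so fewer cells that hold the transcript and less transcript per cell cannot be told apart.

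Under the reading used, pdk1 was below 0 on 18 of 18 arrays, as were 152 of the 7466 clones (2.04%). Within 1 comparison, 6.66% of clones were below 0 on all 6 arrays of B46, 4.35% on those of M14 and 5.04% on those of the mixed lines. In B46, the arrays with o2 on Cy5 gave -1.51, -1.15 and -0.95 in replicates 1, 2 and 3, and the arrays with wild type on Cy5 gave -2.01, -1.92 and -2.52. In M14, the arrays with o2 on Cy5 gave -0.38, -1.16 and -0.20, and their partners with wild type on Cy5 gave -0.85, -1.51 and -0.27. In the mixed lines, the values with o2 on Cy5 were -0.98, -1.55 and -0.72, and those with wild type on Cy5 were -0.40, -0.22 and -1.02. The values farthest from 0 were those of B46 with wild type on Cy5, and the pair nearest to 0 was that of M14 replicate 3. The array with wild type on Cy5 was the lower one in 3 of 3 pairs of B46 and 3 of 3 of M14, but in only 1 of 3 pairs of the mixed lines.

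**Figure D1:**
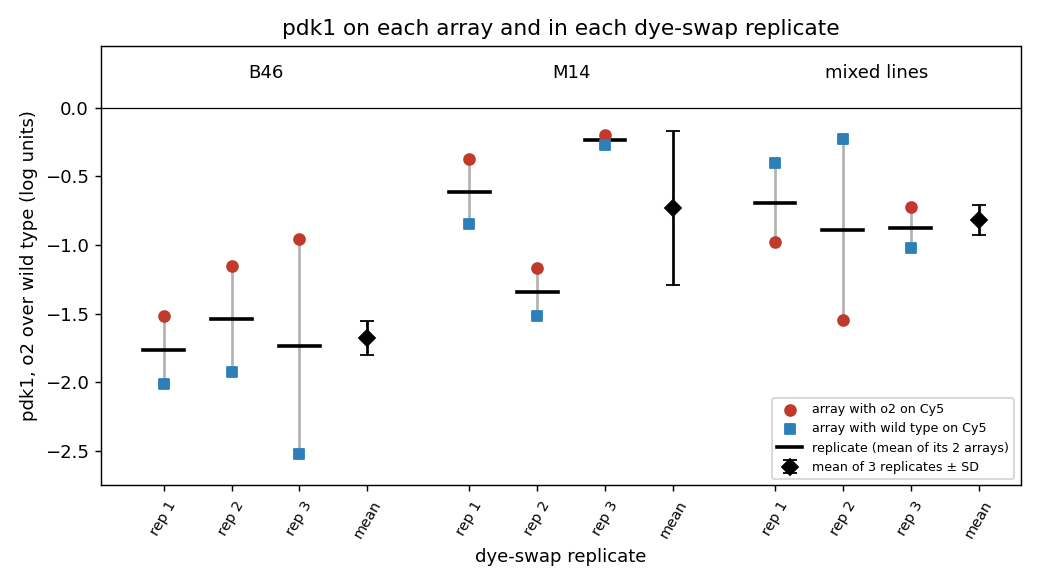
Log ratio of pdk1, o2 over wild type, in log units on the vertical axis, for each of the 18 arrays, grouped by comparison and replicate, with separate markers for the dye that carried o2 a bar for the mean of each dye-swap pair, and a diamond with an error bar for the mean ± SD of 3 replicates. Under the reading used, every array lies below 0, and the pair means of B46, at -1.76, -1.54 and -1.74, lie below those of M14 and the mixed lines.

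Under the reading used, the sign of pdk1 was the same whichever sample carried Cy5. Before the sign was turned pdk1 was above 0 on all 18 arrays. Read as Cy5 over Cy3, its sign would thus change with the dye in every pair. Over the 3 replicates, pdk1 averaged -1.21 ± 0.28 with o2 on Cy5 and -2.15 ± 0.32 with wild type on Cy5 in B46 (SD, n = 3 arrays each). The same averages were -0.58 ± 0.51 and -0.88 ± 0.62 in M14, and -1.08 ± 0.42 and -0.55 ± 0.42 in the mixed lines. The mean distance between partner arrays was ordinary for these arrays, since 49.9% of clones had a smaller one. On no array did another clone share the value of pdk1.

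Ranked from the lowest value, pdk1 stood between place 114 and place 2304 of 7466 on single arrays. It was among the lowest 10% of clones on 11 arrays and among the lowest 25% on 17 of the 18. In B46 the places were 691, 240 and 619 with o2 on Cy5 and 214, 114 and 122 with wild type on Cy5. In M14 they were 1760, 780 and 1628 with o2 on Cy5 and 822, 330 and 1646 with wild type on Cy5. The mixed lines gave 356, 491 and 507 with o2 on Cy5 and 1802, 2304 and 144 with wild type on Cy5. The single place past the lowest 25% was the mixed replicate 2 array with wild type on Cy5, where pdk1 was at -0.22.

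The means of the dye-swap pairs were taken as the replicate values. pdk1 was at -1.76, -1.54 and -1.74 in B46, at -0.61, -1.34 and -0.23 in M14, and the mixed replicates were at -0.69, -0.89 and -0.87. The B46 and mixed replicates lay close together, while the M14 replicates were spread widely, with replicate 2 near the B46 values and replicate 3 nearest to 0. All 9 replicates were below 0, as they were for 394 clones (5.28%). Their places from the lowest were 296, 115 and 161 in B46, 881, 436 and 1063 in M14, and 893, 691 and 141 in the mixed lines, and 6 of the 9 were among the lowest 10% of clones.

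The replicates themselves differed in how widely all clones were spread. The median absolute deviation over clones was 0.128 in M14 replicate 3 and in mixed replicate 3, against 0.204 to 0.291 in the other 7 replicates. Counted in these units, pdk1 was at -6.42, -6.54 and -6.81 in B46, -2.17, -5.27 and -1.77 in M14, and -3.27, -3.37 and -6.83 in the mixed lines. On this scale mixed replicate 3 equalled the B46 replicates, although its log ratio was about as large as that of mixed replicate 2. M14 replicate 3 was the nearest to 0 on both scales. By the second reading the unit was the median absolute deviation of the turned replicate, which is not the one printed above. In those other units pdk1 lay between -2.13 and -0.97 in B46 and between -0.86 and -0.26 in M14. Among the mixed replicates it lay between -0.81 and 2.41.

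In B46 endosperm, pdk1 was called lower in o2 under the reading used. Its mean was -1.68 ± 0.12 (SD, n = 3; 95% confidence interval -2.11 to -1.24), which is 3.20-fold lower in o2 if the log base is 2 (2.37- to 4.33-fold) and 5.36-fold if it is the natural log. limma's test gave a p of 2.73e-05 and a Benjamini-Hochberg adjusted p of 0.00973 over all clones, beside 341 clones called (4.57%), of which 273 were lower (3.66% of all). The confidence intervals of all 3 comparisons use limma's SE (0.186 in each). Its spread is pooled over the 9 replicates, unlike the SD of 3 replicates printed beside them. Among all clones pdk1 held place 105 from the lowest, and place 17 by p, and among the 489 named clones it held place 2 from the lowest, against 54 by the second reading. The call was lost in limma without B46 replicate 1 (adjusted p = 0.0692) and without B46 replicate 3 (adjusted p = 0.0502), with means of -1.64 and -1.65. Turned by the labelled dyes, the B46 replicates were at -0.25, -0.38 and -0.78, and their mean of -0.47 ± 0.28 (SD, n = 3) was not called (limma adjusted p = 0.282, place 913, 5 clones called in all).

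In M14 endosperm, pdk1 averaged -0.73 ± 0.56 (SD, n = 3; 95% confidence interval -1.16 to -0.29), or 1.66-fold lower under base 2 and 2.07-fold under the natural log, and was not called (limma adjusted p = 0.28). The SD in M14 exceeded the pooled replicate SD of 0.338, so this interval is narrower than the M14 replicates alone would give. No clone was called in M14 by limma (0%), while 917 had an unadjusted p under 0.05. pdk1 held place 328 from the lowest, and place 18 among the named clones (109 by the second reading). Replicate 3 and replicate 2 moved the mean most: it was -0.98 without replicate 3 and -0.42 without replicate 2. With the values turned by the dyes, the replicates were at -0.24, -0.17 and -0.036, with a mean of -0.15 ± 0.10 (SD, n = 3; limma adjusted p = 0.719, place 2081).

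In the mixed lines, pdk1 averaged -0.82 ± 0.11 (SD, n = 3; 95% confidence interval -1.25 to -0.38), or 1.76-fold lower under base 2 and 2.26-fold under the natural log. It was not called (limma adjusted p = 0.281), nor was any other clone (0%), and 693 clones had an unadjusted p under 0.05. Place 320 from the lowest, and place 11 among the named clones (424 by the second reading), stand beside 328 and 18 in M14. The second reading changed the sign of the mean: turned by the dyes, the replicates were at 0.29, 0.66 and -0.15 and averaged 0.27 ± 0.41 (SD, n = 3; limma adjusted p = 0.742, place 6359).

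**Figure D2:**
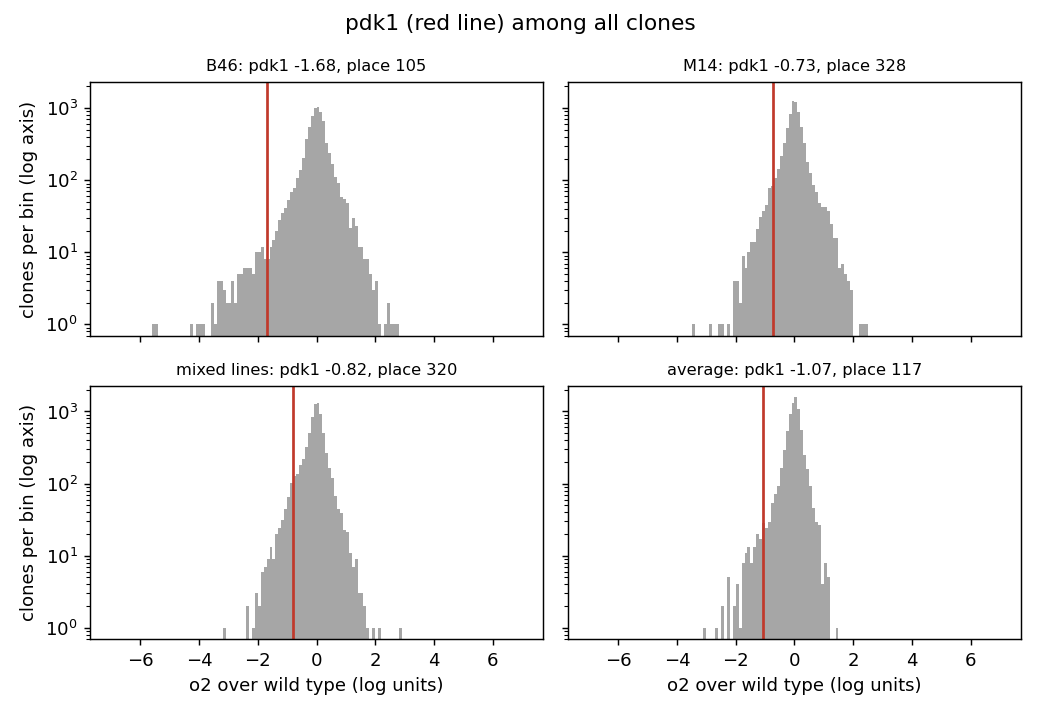
Histograms of the mean log ratio of all 7466 clones, o2 over wild type, in log units on the horizontal axis and clones per bin on a logarithmic vertical axis, in B46, M14, the mixed lines and their average, with a line at pdk1. The line stands at -1.68, -0.73, -0.82 and -1.07, in the lower tail of each histogram, at places 105, 328, 320 and 117 from the lowest.

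Over the 3 comparisons together, pdk1 averaged -1.07 (SE 0.108, n = 9 replicates; 95% confidence interval -1.33 to -0.82) and was lower in o2 in 9 of 9 replicates. That is 2.11-fold lower under base 2 (1.77- to 2.51-fold) and 2.93-fold under the natural log. limma gave a p of 1.32e-05 and an adjusted p of 0.00414, beside 516 clones called in the average (6.91%), of which 369 were lower (4.94% of all). The call held without each replicate in turn, with means between -1.16 and -0.97 and limma adjusted p between 0.0024 and 0.0227. An exact sign-flip permutation test over the 9 replicate values gave a two-sided p of 0.00391, the smallest that its 512 sign patterns allow. With 3 replicates no such test could pass 0.05, so none was run within a comparison. Because pdk1 was looked at when the reading was set, the 9 of 9 and the sign-flip p are not independent of that choice. Turned by the labelled dyes, the average was -0.12 (SE 0.096, limma adjusted p = 0.763, place 1510) and was not called. By that reading 7 of 9 replicates were below 0, and the share of clones with as many was not counted.

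**Figure D3:**
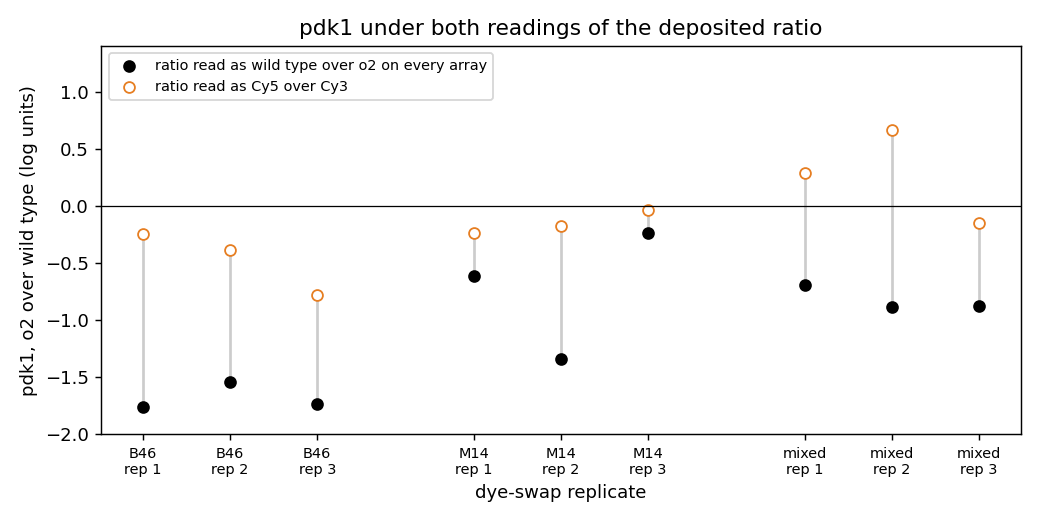
Replicate values of pdk1, o2 over wild type, in log units on the vertical axis, for the 9 replicates on the horizontal axis, under the reading used and with the arrays turned by the labelled dyes. Under the reading used all 9 lie between -1.76 and -0.23, and turned they lie between -0.78 and 0.66.

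pdk1 combined a large difference with an ordinary spread. Its pooled replicate SD was 0.338, against a median of 0.327 over all clones, and 51.0% of clones had a smaller one. In the average, 116 clones lay below pdk1, and their median replicate SD was 0.761. Only 2 of these 116 had a smaller replicate SD than pdk1, and 71 of them were below 0 on all 18 arrays. Lower than pdk1 in each of the 3 comparisons were 52 clones. Among the named clones, 2 averaged lower than pdk1, namely z1C1_12, a 22-kDa alpha zein gene, at -2.25, and betl2, which marks the basal transfer layer, at -1.10. This order rests on the reading used: turned by the dyes, 78 named clones averaged lower than pdk1 at -0.12, and z1C1_12 (-0.084) and betl2 (-0.013) did not.

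The difference in B46 exceeded those elsewhere in size, but no difference between backgrounds passed the test. All 3 B46 replicates of pdk1 lay below all 6 replicates of M14 and the mixed lines, as they did for 252 clones (3.38%). Lying below all 3 M14 replicates alone was shared with 8.84% of clones, and below all 3 mixed replicates with 6.67%. By the second reading the B46 replicates also lay below the other 6, but barely, with the highest of B46 at -0.25 and the lowest of M14 at -0.24. The share of all clones for which this held by the second reading was not counted. B46 minus M14 was -0.95 (95% confidence interval -1.56 to -0.34; limma adjusted p = 0.389), and B46 minus the mixed lines was -0.86 (-1.48 to -0.25; limma adjusted p = 0.869). M14 minus the mixed lines was 0.089 (-0.53 to 0.70; limma adjusted p = 0.977), and -0.16 without M14 replicate 3. No clone was called by limma in any of these 3 differences (0%), while 733, 394 and 376 clones had an unadjusted p under 0.05. Turned by the labelled dyes, the same 3 differences of pdk1 were -0.32, -0.74 and -0.41 (limma adjusted p = 0.867, 0.219 and 0.367). The mixed pools include both B46 and M14, so the 3 comparisons do not hold wholly different lines.

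The regulator itself was measured by 1 clone, and the stretch of the gene that it covers is not stated. The o2 gene was at -0.84, -0.60 and -0.56 in B46, -0.49, -0.17 and -0.45 in M14, and -0.073, -0.56 and -0.058 in the mixed lines, below 0 in 9 of 9 replicates. It was lower in o2 endosperm in B46 (-0.67 ± 0.15, SD, n = 3; limma adjusted p = 0.0303) and in the average (-0.42, SE 0.074, limma adjusted p = 0.015). The B46 call of o2 was lost without any 1 of 6 of the 9 replicates (B46 replicates 1, 2 and 3, M14 replicate 3 and mixed replicates 1 and 3; limma adjusted p up to 0.165). pdk1 was farther from 0 than o2 in 8 of 9 replicates, the exception being M14 replicate 3. In the average, the call of o2 held without each replicate in turn. It was lost with the replicate block (0.0546), with trend and robust variances (0.056), with o2 on Cy5 only (0.313), with wild type on Cy5 only (0.0695) and without replicate 3 of M14 and of mixed together (0.0792; limma adjusted p in each case). The second reading put that average at -0.084 (limma adjusted p = 0.833). z1C1_12 lost its call in the average (limma adjusted p = 0.00883) only by the second reading. In z1C1_12 the replicates were at -3.68, -1.43 and -3.54 in B46, -2.73, -3.44 and -0.61 in M14 and -1.99, -1.72 and -1.10 in the mixed lines, so that M14 replicate 3 was the value nearest to 0 for both z1C1_12 and pdk1. M14 replicate 3 also had a narrow spread over all clones (median absolute deviation 0.128). dzs18, a delta zein gene, was below 0 in 9 of 9 replicates and averaged -0.73, but was not called (limma adjusted p = 0.107).

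Other enzymes that make or use pyruvate and phosphoenolpyruvate were measured by 11 clones of 7 genes. Of these clones, 1 was called lower (9.09%) and 0 higher, both in B46 and in the average, where 3.66% and 4.94% of all clones were called lower. Their medians were 0.095 in B46 and 0.093 in the average, against 0.0068 and 0.0057 over all clones. The clone called was me2, a malic enzyme gene, whose protein forms pyruvate from malate. It was at -0.64, -0.56 and -0.36 in B46, and at between -0.23 and 0.0038 in the other 6 replicates. Its B46 mean was -0.52 ± 0.14 (SD, n = 3; limma adjusted p = 0.0225) and its average -0.24 (SE 0.053, limma adjusted p = 0.0376). The call in the average was kept only without B46 replicate 3, and was lost without any 1 of the other 8 replicates (limma adjusted p up to 0.109). The call in B46 was lost without any of its own replicates or mixed replicate 3 (up to 0.138).

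The members of that list not called had values on both sides of 0. The 4 clones of eno1, which encodes the enolase that forms phosphoenolpyruvate, averaged 0.18, -0.12, -0.14 and 0.20 over the 3 comparisons. pdc3, a pyruvate decarboxylase gene, was at 1.41, 1.34 and 0.40 in B46, with a limma adjusted p of 0.0536, and at -0.34 and -0.43 in M14 replicates 2 and 3. pep7, a phosphoenolpyruvate carboxylase gene, averaged 0.23, mdh4, a malate dehydrogenase gene, 0.093, and pdc1, another pyruvate decarboxylase gene, -0.091. The 2 clones of pdh2, for a pyruvate dehydrogenase subunit, averaged -0.22 and 0.096. Under the reading used pdk1 averaged lower than each of these 11 clones, but by the second reading the first pdh2 clone (-0.13) was lower than pdk1 (-0.12).

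Glycolytic genes upstream of phosphoenolpyruvate were represented by 7 clones of 5 genes, and those that passed the test had the sign opposite to that of pdk1. In B46, 3 clones were called higher and 0 lower, beside 68 clones called higher among all (0.911%), and in the average 4 were higher and 0 lower (147 of all clones, 1.97%). The 4 clones belong to genes of cytosolic glyceraldehyde-3-phosphate dehydrogenase. gpc4 was at 0.94, 1.20 and 0.67 in B46, 0.42, 0.89 and 0.017 in M14, and 0.54, 0.54 and 0.50 in the mixed lines, above 0 in every replicate and nearest to 0 in M14 replicate 3, as pdk1 was. In that replicate all clones were narrowly spread (median absolute deviation 0.128). The average of gpc4 was 0.63 (limma adjusted p = 0.00853), and those of the 2 gpc3 clones were 0.64 and 0.47 (limma adjusted p = 0.00883 and 0.025). GPC1 averaged 0.30 (limma adjusted p = 0.0278), with M14 at -0.065.

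The calls of gpc4 and of the first gpc3 clone in the average held without each replicate in turn. Both were lost with trend and robust variances (limma adjusted p = 0.0703 each) and by the second reading, and that of gpc3 also with o2 on Cy5 only (0.0632). That of the second gpc3 clone was lost without any 1 of 5 replicates (B46 replicate 2, M14 replicate 1 and the 3 mixed replicates; limma adjusted p up to 0.0803), and that of GPC1 without any 1 of 6 (B46 replicates 1 and 2, M14 replicates 1 and 3 and mixed replicates 1 and 3; up to 0.0863). In B46, GPC1 (0.66), gpc4 (0.93) and the first gpc3 clone (0.82) were called, each of them not without any 1 of the B46 replicates (up to 0.0876, 0.13 and 0.198). gpc4 was also not called there without mixed replicate 3, and the first gpc3 clone not without M14 replicate 1 or any mixed replicate. Read by the dyes, the averages of the 4 clones lay between -0.021 and 0.047. The paralogs are alike in sequence, and binding of one transcript to the clone of another was not tested. frk1, a fructokinase gene, and the 2 clones of phi1, for phosphohexose isomerase, averaged 0.10, 0.023 and -0.019.

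**Figure D4:**
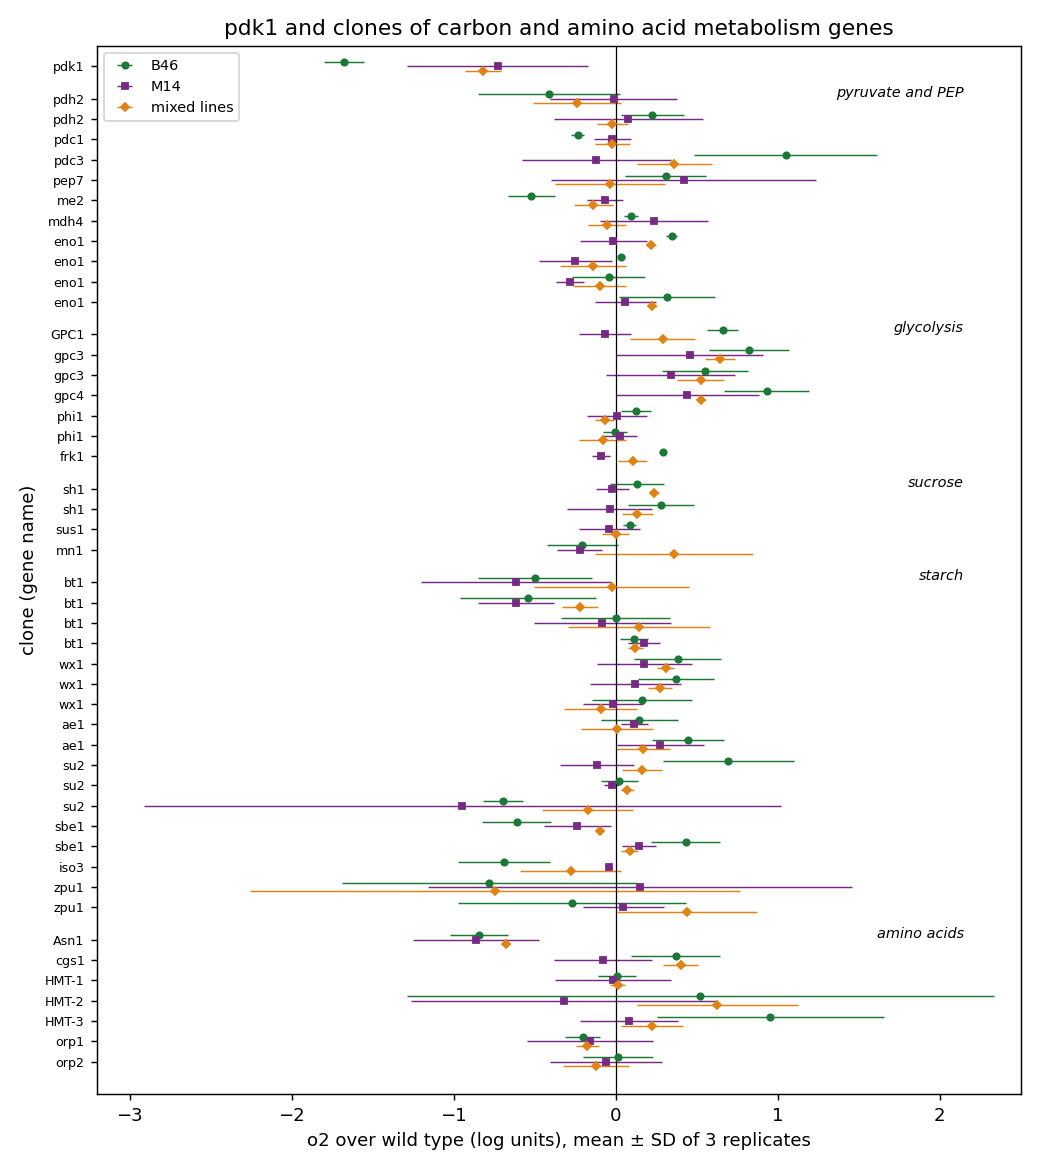
Log ratio, o2 over wild type, in log units on the horizontal axis, as the mean ± SD of 3 replicates in B46, M14 and the mixed lines, for pdk1 in the top row and for each clone of the lists of pyruvate and phosphoenolpyruvate, glycolysis, sucrose, starch and amino acid genes below it. Under the reading used, pdk1 has the lowest mean in B46 (-1.68) and in the mixed lines (-0.82), and in M14 (-0.73) a clone of su2 (-0.95) and Asn1 (-0.86) lie lower.

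Sucrose entry, the first step of carbon supply to the endosperm, was measured by 4 clones of 3 genes, of which 0 were called by limma in any comparison or in the average. At an unadjusted p under 0.05 there was 1, a clone of sh1 in the mixed lines, at 0.24. sh1 and sus1 encode sucrose synthases and mn1 a cell wall invertase. Averages of these clones lay between -0.022 and 0.13, against -1.07 for pdk1.

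Starch genes were measured by 17 clones of 7 genes, of which 2 were called lower (11.8%) and 0 higher, in B46 as in the average, beside 3.66% and 4.94% of all clones called lower. In the average these were 1 of the 2 clones of sbe1, a starch branching enzyme gene, at -0.31 (limma adjusted p = 0.0265), and 1 of the 4 clones of bt1, which encodes an adenylate carrier of the amyloplast, at -0.46 (limma adjusted p = 0.0267). The other clone of sbe1 averaged 0.22, and the other clones of bt1 averaged -0.38, 0.022 and 0.14, so the clones of each gene disagreed in sign. The sbe1 call in the average was lost without any 1 of 7 replicates (all but B46 replicate 2 and M14 replicate 3; up to 0.0807) and that of bt1 without any 1 of 6 (B46 replicate 2, M14 replicates 1 and 2 and the 3 mixed replicates; up to 0.0774). In B46 the called clones were the same sbe1 clone at -0.61 (limma adjusted p = 0.0244) and iso3, a debranching enzyme gene, at -0.69 (limma adjusted p = 0.0371). That sbe1 call was lost without B46 replicate 1 or 3 or any mixed replicate (up to 0.143), and the iso3 call was kept only without mixed replicate 3 (up to 0.195 otherwise). wx1, ae1, su2 and zpu1, which encode a starch synthase, a branching enzyme, another starch synthase and a pullulanase, had 0 of their 10 clones called.

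Amino acid genes were measured by 7 clones of 7 genes, of which 1 was lower (14.3%) and 0 higher in B46 and in the average, beside 3.66% and 4.94% of all clones called lower. It was the clone annotated as Asn1, whose entry also carries a synonym of another kind of gene, so no role is given to it here. Asn1 was at -1.03, -0.67 and -0.84 in B46, -1.07, -1.11 and -0.41 in M14, and -0.71, -0.68 and -0.65 in the mixed lines. Its average of -0.80 (limma adjusted p = 0.00427) was kept without each replicate in turn, whereas its B46 call (-0.85, limma adjusted p = 0.0196) was lost without any 1 B46 replicate (up to 0.129). By the second reading it averaged -0.012. Cystathionine gamma-synthase (cgs1), the homocysteine methyltransferases HMT-1, HMT-2 and HMT-3, and the tryptophan synthase genes orp1 and orp2 averaged between -0.18 and 0.42 and were not called.

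Over the 5 lists, 46 clones of 29 genes were measured beside pdk1. In the average 4 were lower (8.70%, against 4.94% of all clones) and 4 higher (8.70%, against 1.97%), and in B46 4 were lower and 3 higher. Neither M14 nor the mixed lines had a call by limma, as for all clones. Their median was 0.12 in B46, -0.02 in M14, 0.043 in the mixed lines and 0.082 in the average. Under the reading used pdk1, at -1.07, was lower in the average than every one of the 46, of which the lowest was Asn1 (-0.80). By the second reading 4 of the 46 were lower than pdk1 (-0.12), namely clones of bt1 (-0.25), mn1 (-0.20), su2 (-0.15) and pdh2 (-0.13), and Asn1 was at -0.012. In M14 alone, Asn1 (-0.86) and a clone of su2 (-0.95 ± 1.97, SD, n = 3) were below pdk1.

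Likeness to pdk1 was measured as the root mean square difference from it over the 9 replicates, and the 5 nearest of the other 488 named clones are given as a description. LOC541999, to which the tables give no described function, was nearest at 0.42 log units, with a mean of -1.54 in B46, of -0.48 in M14 and of -0.95 for the mixed lines. It was followed by les22, which encodes uroporphyrinogen decarboxylase, at 0.45, and by 1 clone of LOC542547 at 0.51, a gene with no other clone among the 5. Next were Asn1 at 0.53 and hsp22, a small heat-shock protein gene, at 0.55. The averages of the 5 were -0.99, -0.69, -0.70, -0.80 and -0.71, all nearer to 0 than that of pdk1 under the reading used. All 5 lay below 0 in every replicate, except hsp22 in M14 replicate 3. The clone nearest of all was unnamed, at 0.17. In all, 42 clones were nearer than LOC541999 and 105 were nearer than hsp22, while the median over all clones was 1.27. Under the second reading the averages of the 5 were -0.50, 0.0069, 0.049, -0.012 and -0.16.

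**Figure D5:**
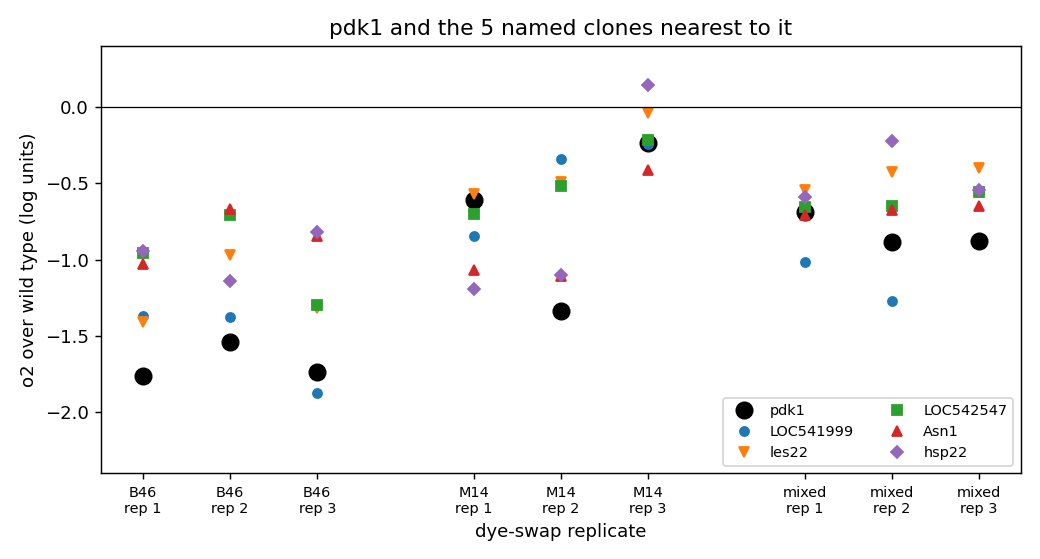
Replicate values of pdk1 (large black points) and of the 5 named clones nearest to it, o2 over wild type, in log units on the vertical axis, for the 9 replicates on the horizontal axis. In B46 replicates 1 and 2 pdk1 lies below the 5 others, and in M14 replicate 3 the 6 clones lie between -0.41 and 0.14.

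Markers of other tissues were read as differences, since a ratio of 2 endosperm samples gives no level. Of the transfer layer genes, betl2 was lower in the average (-1.10, SE 0.142, limma adjusted p = 0.00551), with B46 at -0.81, M14 at -1.26 and the mixed lines at -1.23, and betl4 was not called, at 0.013, so 1 of 2 clones moved with pdk1. Its part in the result of pdk1 was not tested. Over 3 replicates, the SD of betl2 was 0.089 (B46), 0.63 (M14) and 0.48 (mixed lines). Whether the means of betl2 differed between the comparisons was not tested. The aleurone gene PLTP (-0.052), the embryo genes ole1 (-0.063) and dhn2 (-0.075) and the light-harvesting genes lhcb5 (-0.28) and Lhcb5-2 (-0.081) gave 0 of 5 clones called in the average. Leaf holds much of the C4 form of the dikinase, and these 2 leaf markers were the only ones on the list with a named clone.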

How the data were processed

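Spot and background intensities were read with ImaGene 4.1, per the labels. The values that the authors deposited are signed log ratios, another kind of value than counts or intensities, 1 for each row of an array, between -9.70 and 11.5. For these values the background correction, normalization, log base and direction are not given in the sources that were used, and scanner intensities were not used. Each clone stands on 2 neighbouring identical rows, counted once. The median of an array was subtracted, the sign was turned, and the array was averaged with its dye-swap partner, which left 9 replicates. All 7466 clones were fitted with limma 3.58.1 in R 4.3.3 (lmFit, eBayes, a mean per comparison, no covariates, 6 residual and 1.51 prior degrees of freedom), after tests on simulated data. Calls were made below 0.05 after Benjamini-Hochberg adjustment over all clones. Precision is limited by the small number of arrays.

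The platform annotation named 489 clones with 370 genes, of which 360 matched by identifier to the RefSeq genes of Zm-B73-REFERENCE-NAM-5.0. Coordinates are left out, as no build is named for the array. The named genes were pdk1, o2, the members of lists of metabolic genes and markers, and the 5 named clones nearest to pdk1. These genes and lists were chosen with earlier results of these data known. The symbol PK, which does not say which kinase it stands for, was left out. Alternatives left out each replicate, took 1 array of each pair, all 18 arrays or 1 comparison alone, turned the values by the labelled dyes, and changed centring, scaling, normalization, variance model, weights, replicate block and clone filter.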

Additional observations from a re-analysis of the deposited data

How the results depend on the processing

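pdk1 stayed below 0 in B46, in M14 and in the average under every alternative run, and reading the ratio by the labelled dyes was the one alternative that ended its call in the average (-0.12, limma adjusted p = 0.763). Its B46 call was also lost with the B46 replicates fitted alone (-1.68, limma adjusted p = 0.21), with the arrays with o2 on Cy5 only (-1.21, limma adjusted p = 0.0596) and turned by the dyes (-0.47). Leaving out each replicate in turn gave -1.75 to -1.64 in B46, with 7 of 9 called, -0.98 to -0.42 in M14, -0.88 to -0.78 in the mixed lines and -1.16 to -0.97 in the average. The same range was -1.26 to -0.70 for B46 minus M14, -0.93 to -0.80 for B46 minus the mixed lines and -0.16 to 0.39 for M14 minus the mixed lines. That last difference was also below 0 with the arrays with wild type on Cy5 only (-0.33), turned by the dyes (-0.41) and without replicate 3 of M14 and of mixed together (-0.19, an alternative chosen after seeing the data). Turned by the dyes, pdk1 in the mixed lines was at 0.27, GPC1 in B46 at -0.074, gpc4 in B46 at -0.018 and the first gpc3 clone in the average at -0.021, all with the other sign. So were les22 (0.0069 in the average, 0.011 in B46), the LOC542547 clone (0.049 and 0.12) and me2 in the average (0.0021). The cause was not tested. The place of pdk1 in the average was 117, and 264 with o2 on Cy5 only, 1510 turned by the dyes, and 88 to 148 otherwise. Clones called in the average varied between 0 and 4 for glycolysis, 0 and 2 for pyruvate and phosphoenolpyruvate, 0 and 6 for starch and 0 and 2 for o2 with z1C1_12 and dzs18. Of 21 alternatives for the average, the call was lost or turned in 2 for gpc4, 3 for the first gpc3 clone, 9 for the second, 14 for GPC1, 17 for me2, 13 for sbe1, 11 for bt1 and 6 for o2.

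Replicate numbers were shared by the comparisons, but replicates with the same number correlated at between -0.034 and 0.10 and those with other numbers at between -0.15 and 0.093, so the numbers were not taken to pair samples, and 5 of 9 replicates correlated best with their own number. With the replicate number as a block, pdk1 was at -1.07 in the average (limma adjusted p = 0.0181) and at -1.68 in B46 (limma adjusted p = 0.039), and no call of pdk1 changed.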
